A study of Mus musculus with 4 samples.

Results

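Nuclei of pericytes and vascular fibroblasts were selected by marker genes from single-nucleus RNA sequencing (snRNA-seq) of the mouse thalamus, and 137 of the 32241 nuclei kept in 4 libraries passed the selection. A nucleus was kept if it had at least 500 genes and under 5% of its unique molecular identifiers (UMIs, counts of single RNA molecules) from mitochondrial genes. It was then selected if the mural genes Pdgfrb, Rgs5, Abcc9 and Atp13a5 and the fibroblast genes Col1a1, Col1a2, Dcn and Bnc2 together reached 10 UMIs per 10000 and at least 2 of them had a UMI. Their sum also had to exceed that of the endothelial genes Flt1, Cldn5, Pecam1 and Adgrl4, and the neuronal genes Myt1l and Celf4 together had to stay under 20 UMIs per 10000. A gated nucleus was called mural-leaning if the mural genes summed higher and fibroblast-leaning if the fibroblast genes did. Members were thus chosen on measured values, so the levels of these 14 genes in the gate are a description. Some of them enter the fits below, but no test of them is read.

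The NS group (2 libraries) received saline and the COL group (2 libraries) received 0.01 U of type IV collagenase (Coll IV) in 10 nl, an enzyme that digests the collagen of vessel walls and makes them bleed, in the ventral posterior nuclei of the right thalamus. All mice were adult wild-type C57BL6 animals of 7 to 8 weeks, and tissue was taken 7 days after the injection to study thalamic haemorrhage and the pain that follows it. Each library pooled the tissue of 3 mice of a single group, so replication rests on libraries (n = 2 in a group) and the spread between single mice was not seen. The labels describe the material as neurons and glia, with no sort for vascular cells.

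Pericytes are mural cells that lie on the capillary wall inside the basement membrane they share with the endothelium, hold the blood-brain barrier together and respond to endothelial PDGF-B through the receptor Pdgfrb. Vascular fibroblasts lie around larger vessels and in the meninges and make fibrillar collagens. Both are known as sources of scar matrix in injured central nervous tissue.

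Values of the libraries are given throughout in the order NS replicate 1, NS replicate 2, COL replicate 1, COL replicate 2. Their files held 77557870, 68746459, 69513636 and 69511080 UMIs. Library pairs shared between 8 and 31 barcodes, none of them in a gated nucleus. The gated nuclei were shallower than the others, and more so in the NS group, with medians of 2114.5, 2476, 6133 and 5788 UMIs against 6501, 4673.5, 8664.5 and 8691 over all nuclei kept. Their summed RNA came to 95852, 138055, 133826 and 262141 UMIs, so that 1 UMI equals 10.4, 7.24, 7.47 and 3.81 CPM (counts scaled to a library sum of 1000000). The deepest member was a fibroblast-leaning nucleus of COL replicate 2 with 51876 UMIs.

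The gate held 38, 48, 20 and 31 nuclei. These were 0.393% (exact 95% Clopper-Pearson interval 0.279 to 0.539), 0.462% (0.341 to 0.612), 0.337% (0.206 to 0.520) and 0.495% (0.336 to 0.702) of the nuclei kept. Intervals cover counting error only. The mean share was 0.428% ± 0.0487 (SD, n = 2) for NS and 0.416% ± 0.111 for COL, and the libraries of the groups overlapped (two-sided exact permutation test, p = 1). With 2 libraries against 2, this test cannot give a p below 0.33. The sign of the difference, -0.0117 percentage points, turned when at least 20 UMIs per 10000 were asked for (0.0322) or at least 3 gate genes (0.0698), and when NS replicate 2 (0.0228) or COL replicate 1 (0.0671) was left out. With every nucleus thinned to 2000 UMIs before the gate, in a single random draw, and shallower nuclei left out, the shares were 0.583, 0.625, 0.374 and 0.578%, lower in both COL libraries (difference -0.128 percentage points, exact permutation p = 0.33). That gate held 54, 60, 22 and 36 nuclei, so it took in nuclei outside the main gate. The depth limit removed members of the NS libraries alone, as the shallowest members had 1304, 981, 2841 and 2763 UMIs.

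Mural-leaning nuclei numbered 36, 27, 12 and 13, fibroblast-leaning nuclei 2, 18, 7 and 18, and 4 nuclei leaned to neither. Mural-leaning nuclei made up 0.373, 0.260, 0.202 and 0.208% of the nuclei kept, with both COL libraries below both NS libraries (means 0.205% ± 0.0036 and 0.316% ± 0.0796, exact permutation p = 0.33, the smallest possible). The groups overlapped in this share at a sum of 20 (0.259, 0.193, 0.169 and 0.208%), with 3 gate genes (0.228, 0.183, 0.169 and 0.208%) and in a strict gate without nuclei in which another cell type's markers outweighed the gate genes (0.259, 0.183, 0.152 and 0.192%). With nuclei thinned to 2000 UMIs, a gate of partly other nuclei, they did not (0.464, 0.334, 0.170 and 0.257%). Fibroblast-leaning nuclei made up 0.0207, 0.173, 0.118 and 0.287%. Their share of the gate was 5.26% (exact 95% interval 0.644 to 17.7), 37.5% (24.0 to 52.6), 35.0% (15.4 to 59.2) and 58.1% (39.1 to 75.5). The low share belonged to NS replicate 1 and the others overlapped in their intervals, so the means of 21.4% ± 22.8 and 46.5% ± 16.3 did not differ beyond the spread between libraries (exact permutation p = 0.667). The groups separated, at the smallest possible p of 0.33, with 3 gate genes (0, 28.6, 31.2 and 43.5%) and with nuclei thinned to 2000 UMIs (3.7, 25.0, 40.9 and 47.2%).

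**Figure D1:**
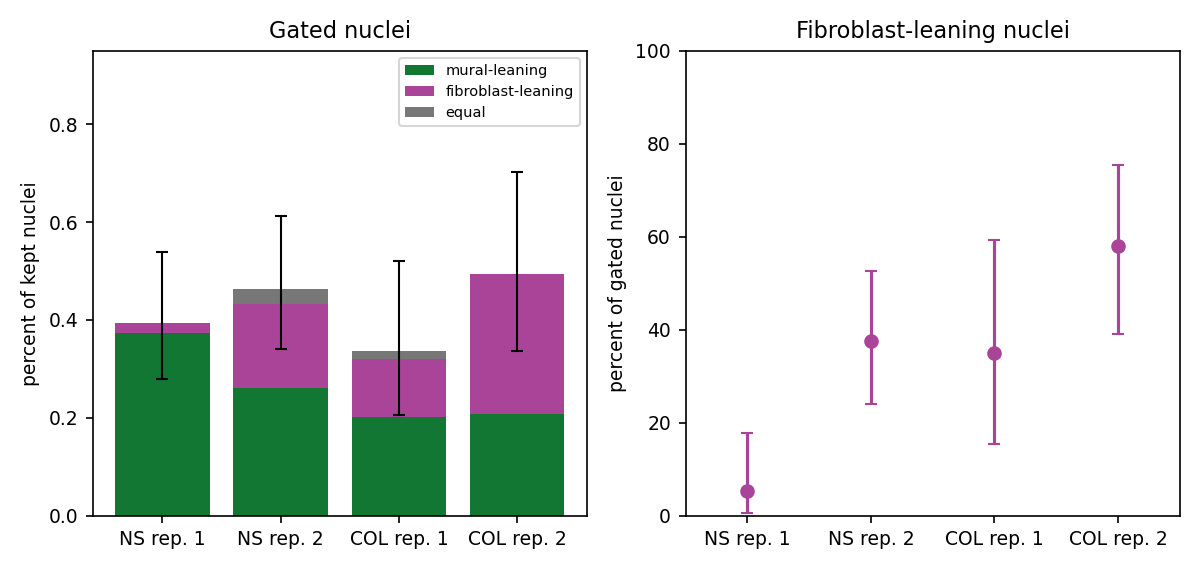
The left panel plots the gated nuclei of each library in percent of the nuclei kept, stacked as mural-leaning, fibroblast-leaning and equal, with the exact 95% interval of the total. The right panel plots the percent of gated nuclei that leaned to the fibroblast genes, from 5.26% in NS replicate 1 to 58.1% in COL replicate 2, with the same kind of interval.

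The mural genes of the gate shared nuclei with the fibroblast genes to different extents. Of the 137 nuclei, 93 had a UMI of Pdgfrb, the PDGF-B receptor, 89 of the transport ATPase Atp13a5, 59 of the potassium channel subunit Abcc9 and 47 of Rgs5, a regulator of G protein signalling. Rgs5 was found with Atp13a5 in 42 nuclei and with the collagen gene Col1a1 in 0. Atp13a5 was found in 3 of the 18 nuclei with Col1a1 and in 15 of the 51 with Col1a2. Col1a2 was found with the proteoglycan gene Dcn in 30 nuclei. Pdgfrb was found in 10 of the 18 nuclei with Col1a1, 20 of the 40 with Dcn and 24 of the 51 with Col1a2, and in 0, 4, 3 and 8 of the fibroblast-leaning nuclei. Among the mural-leaning nuclei, 29, 19, 6 and 10 had no fibroblast UMI at all, and 35, 24, 11 and 12 had a UMI of Atp13a5.

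Fibroblast-leaning nuclei were of a mixed kind. The transcription factor gene Bnc2 was the leading part of the sum in 0, 8, 1 and 9 of them, and the matrix genes Col1a1, Col1a2 and Dcn led in 2, 10, 6 and 9. Col1a1 reached 2, 6, 31 and 69 UMIs in the gate, and no NS nucleus but 1 and 2 nuclei of the COL libraries had 10 or more. Those COL nuclei were deep, with 8105, 21753 and 51876 UMIs, against medians of 3122.5 and 3346.5 in fibroblast-leaning NS nuclei. A single nucleus held 24 of the 31 and another held 36 of the 69. Near the threshold, 6, 6, 1 and 3 gated nuclei had a summed level under 12 per 10000, and 15, 12, 3 and 1 nuclei that met the rest of the rule fell just short, between 8 and 10.

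**Figure D2:**
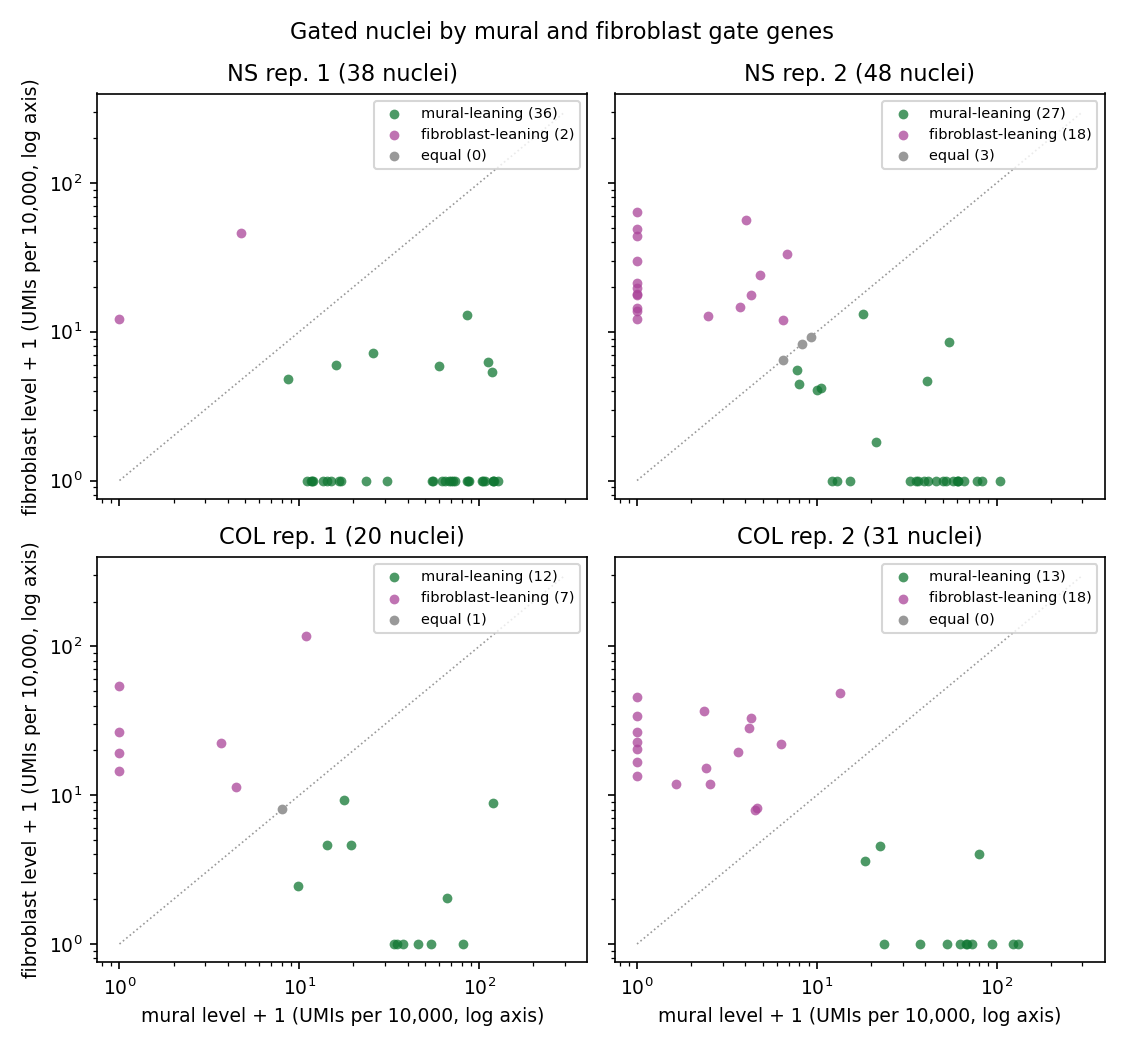
Each point is a gated nucleus, in a panel per library, with the summed mural genes on the x axis and the summed fibroblast genes on the y axis, both in UMIs per 10000 plus 1 on log axes, and the dotted line marks equal sums. Most points lie along an axis, and NS replicate 1 has only 2 on the fibroblast side.

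Genes that the rule did not use also set the gate apart from all other nuclei, as a description. Among 612 genes with at least 20 gated UMIs in every library, Slc6a20a, a proline transporter gene, led with at least 205 times the CPM of the other nuclei in each library, followed by Vtn (vitronectin, a matrix protein that pericytes make, 114 times), Slc38a11, an amino acid transporter gene (67.5 times), and Itga1, an integrin subunit that binds collagen (50.7 times). The next 11 were Cped1, Rbpms, Colec12, Adamts12, Arhgap29, Phldb2, Cp, Egflam, Igfbp7, Dock6 and Cgnl1, down to 16.4 times. After each nucleus was thinned to 1000 UMIs in a single random draw, Slc6a20a was found in 28.9, 40.4, 40.0 and 35.5% of gated nuclei and in 0.104, 0.185, 0.068 and 0.241% of the others. Without thinning it was found in 42.1, 56.2, 70.0 and 54.8% of gated nuclei.

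Some of these genes lay mostly on the mural or the fibroblast side and others on both. Slc38a11 had 59, 33, 34 and 63 UMIs in mural-leaning nuclei and none in fibroblast-leaning ones. Notch3, the Notch receptor of mural cells, had 45, 35, 30 and 66 against 0, 2, 0 and 1. The potassium channel gene Kcnj8, partner of Abcc9 in pericytes, had 9, 10, 5 and 9 UMIs, all of them mural-leaning. Notch3 and Kcnj8 were not among the 15 and come from the list of other pericyte genes. Slc6a20a was found on both sides, with 40, 35, 61 and 63 mural-leaning and 13, 43, 38 and 51 fibroblast-leaning UMIs, as was Cped1, with 36, 22, 50 and 51 and 26, 105, 163 and 244. On the fibroblast side, in the 3 libraries with over 2 such nuclei, Cped1, Ranbp3l, Tbx15, Uaca and Adamts12 followed Slc6a20a, each at least 85.3 times above the other nuclei. Ranbp3l had 9, 110, 32 and 58 UMIs there, and the organic cation transporter gene Slc47a1 had 0, 25, 18 and 64 and none in mural-leaning nuclei.

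Defining genes of contractile smooth muscle were at or near 0. Tagln had no UMI, the actin gene Acta2 had 1, 3, 0 and 2 and the myosin gene Myh11 had 4, 3, 6 and 3, while the whole list of 9 smooth muscle genes, 2 of them at 0 in all mural-leaning nuclei, summed to 190, 99.2, 257 and 287 CPM in mural-leaning nuclei against 10.8, 11.4, 9.18 and 9.65 in all nuclei outside the gate. The kinase gene Mylk held 10, 2, 10 and 15 of the 17, 7, 18 and 22 UMIs behind that sum. Endothelial markers (8 genes) stood at 146, 50.7, 149 and 145 CPM in the gate, a level that the rule itself held down, since it used 4 of them. Markers of microglia and macrophages (7 genes) stood at 0, 130, 67.3 and 107 CPM. Astrocyte markers (6 genes) were above their level elsewhere, at 1763, 1072, 1465 and 439 CPM against 585, 462, 289 and 304. The astrocyte genes outweighed the gate genes in 10, 6, 2 and 0 of the mural-leaning and in 1, 2, 2 and 3 of the fibroblast-leaning nuclei.

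For the comparison of the groups, UMIs of the gated nuclei were summed per library and 3241 genes were tested with edgeR's quasi-likelihood test. None passed a Benjamini-Hochberg adjusted p of 0.05 in either direction (0.0% of the genes tested, both for higher and for lower). At an unadjusted p under 0.05, 170 genes were higher in the COL group (5.25%) and 296 were lower (9.13%), and the lowest adjusted p was 0.068. DESeq2, run as an alternative, called 30 of 2076 genes higher (1.45%) and 24 lower (1.16%). The 3241 genes include 11 genes of the rule. At least 2 gate genes are among the 170, and at least 2 among the 30. Both COL libraries lay above both NS libraries for 972 genes (30.0%) and below them for 576 (17.8%). The sums mix mural and fibroblast RNA in the proportions of each library, so a change within a kind of nucleus and a change of the mix cannot be told apart in them. The genes named below beyond the members of highest CPM in each list were chosen after their values were seen.

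Several genes of the fibrillar and wound matrix, picked after their values were seen, had higher levels in both COL libraries without passing the test. Fn1, which encodes fibronectin, had 0, 2, 40 and 130 UMIs (0, 14.5, 299 and 496 CPM). Its log2 fold change was 5.32 (SE 0.72, edgeR adjusted p = 0.068), and 4.62 without NS replicate 1 or 9.03 without NS replicate 2, which holds the only NS counts. The fibrillar collagen gene Col3a1 had 2, 7, 82 and 70 UMIs, or 20.9, 50.7, 613 and 267 CPM, a log2 fold change of 3.34 (SE 0.60, edgeR adjusted p = 0.068) that ran from 2.74 without COL replicate 1 to 4.24 without NS replicate 2. For both genes the COL libraries lay above the NS libraries without overlap, although neither passed the test.

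Spp1 (osteopontin, a matrix and cytokine-like protein) had 0, 4, 40 and 56 UMIs (0, 29.0, 299 and 214 CPM), with a log2 fold change of 3.72 (SE 0.70, edgeR adjusted p = 0.0707). It was 2.99 without NS replicate 1, and 8.36 without NS replicate 2, which holds the only NS counts. Mgp, an inhibitor of calcification in vessel walls, had 7, 6, 51 and 62 UMIs (73.0, 43.5, 381 and 237 CPM) and a log2 fold change of 2.27 (SE 0.47, edgeR adjusted p = 0.0783). Cemip, which takes part in the breakdown of hyaluronan, had 10, 53, 205 and 230 UMIs (104, 384, 1532 and 877 CPM). The same order was seen in Bgn (biglycan; 1, 1, 11 and 37 UMIs) and Col5a2 (1, 8, 22 and 91 UMIs). DESeq2 called Fn1, Spp1, Col3a1, Col5a2 and Mgp higher, and edgeR called none of these 7.

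Few nuclei carried the UMIs of Fn1 and Col3a1. Fn1 was found in 5 and 6 nuclei of the COL libraries, and single nuclei held 22 of the 40 and 60 of the 130 UMIs. For Col3a1, found in 2, 5, 7 and 9 nuclei, the largest single contributions were 58 of 82 and 39 of 70. Spp1 was found in 0, 3, 7 and 17 gated nuclei, more than Fn1 in both COL libraries and more than Col3a1 in COL replicate 2 only. It was also found in 16.7 and 41.4% of all other nuclei of the COL libraries. Without the nucleus with the most UMIs, an alternative added after the values were seen, edgeR called Fn1, Slc39a14 and Col4a1 higher, with Fn1 at a log2 fold change of 5.02. In a gate that left out every nucleus in which another cell type's markers outweighed the gate genes (26, 35, 13 and 23 nuclei left), Fn1 had 0, 2, 39 and 130 UMIs and Col3a1 had 1, 6, 77 and 66. Both genes kept nearly all of their UMIs there, and edgeR called 0 of 2084 genes in that gate (293 at an unadjusted p under 0.05).

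Fn1 and Col3a1 sat on the fibroblast side. Spp1 lay on both, in 25.0 and 53.8% of the mural-leaning and 57.1 and 55.6% of the fibroblast-leaning nuclei of the COL libraries. Fibroblast-leaning nuclei held 37 of the 40 Fn1 UMIs of COL replicate 1 and all 130 of COL replicate 2. They held 80 of 82 and 69 of 70 of the Col3a1 UMIs. No test was run within fibroblast-leaning nuclei, since NS replicate 1 had 2 and COL replicate 1 had 7 of them and at least 10 per library were required.

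In the list of 17 other fibroblast genes, 9 were tested, 5 had both COL libraries above both NS libraries (30.0% of all genes tested did) and the median log2 fold change was 0.83, beside 0.03 over all genes tested. In the list of 22 scar matrix and wound genes, 7 were tested and 5 had both COL libraries above, with a median of 1.34. A filter on low counts keeps a gene of this kind mainly through the group in which it is high, so these counts and medians only describe the members that passed. Within fibroblast-leaning nuclei (6245, 61858, 60944 and 185496 UMIs), the whole list of scar matrix and wound genes summed to 4323, 1423, 4972 and 3596 CPM. The other fibroblast genes summed there to 7526, 4365, 7810 and 4054 CPM, and the groups overlapped in both sums. Members whose groups overlapped include Ranbp3l at 93.9, 999.6, 254 and 221 CPM, Pdgfra, the receptor of fibroblasts and oligodendrocyte precursors, at 177, 174, 247 and 164, and Sparc, a collagen-binding protein, at 282, 181, 359 and 237. Adamts12, a metalloprotease gene, stood at 250.4, 369, 889 and 393 CPM, with no overlap.

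Several wound genes too low for the test had at most 2 UMIs in an NS library. The protease inhibitor gene Timp1 had 0, 0, 5 and 12 UMIs and the prostaglandin synthase gene Ptgs2 had 0, 0, 4 and 16. The matrix genes Tnc and Col8a1 had 2, 0, 5 and 47 and 1, 0, 8 and 86. A count of 0 allows up to 3 UMIs, or 31.3 and 21.7 CPM in NS replicates 1 and 2, and the COL levels of Timp1 were 37.4 and 45.8 CPM. The level of Ptgs2 was 29.9 CPM in COL replicate 1, below the limit of NS replicate 1, and 61.0 CPM in COL replicate 2.

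**Figure D3:**
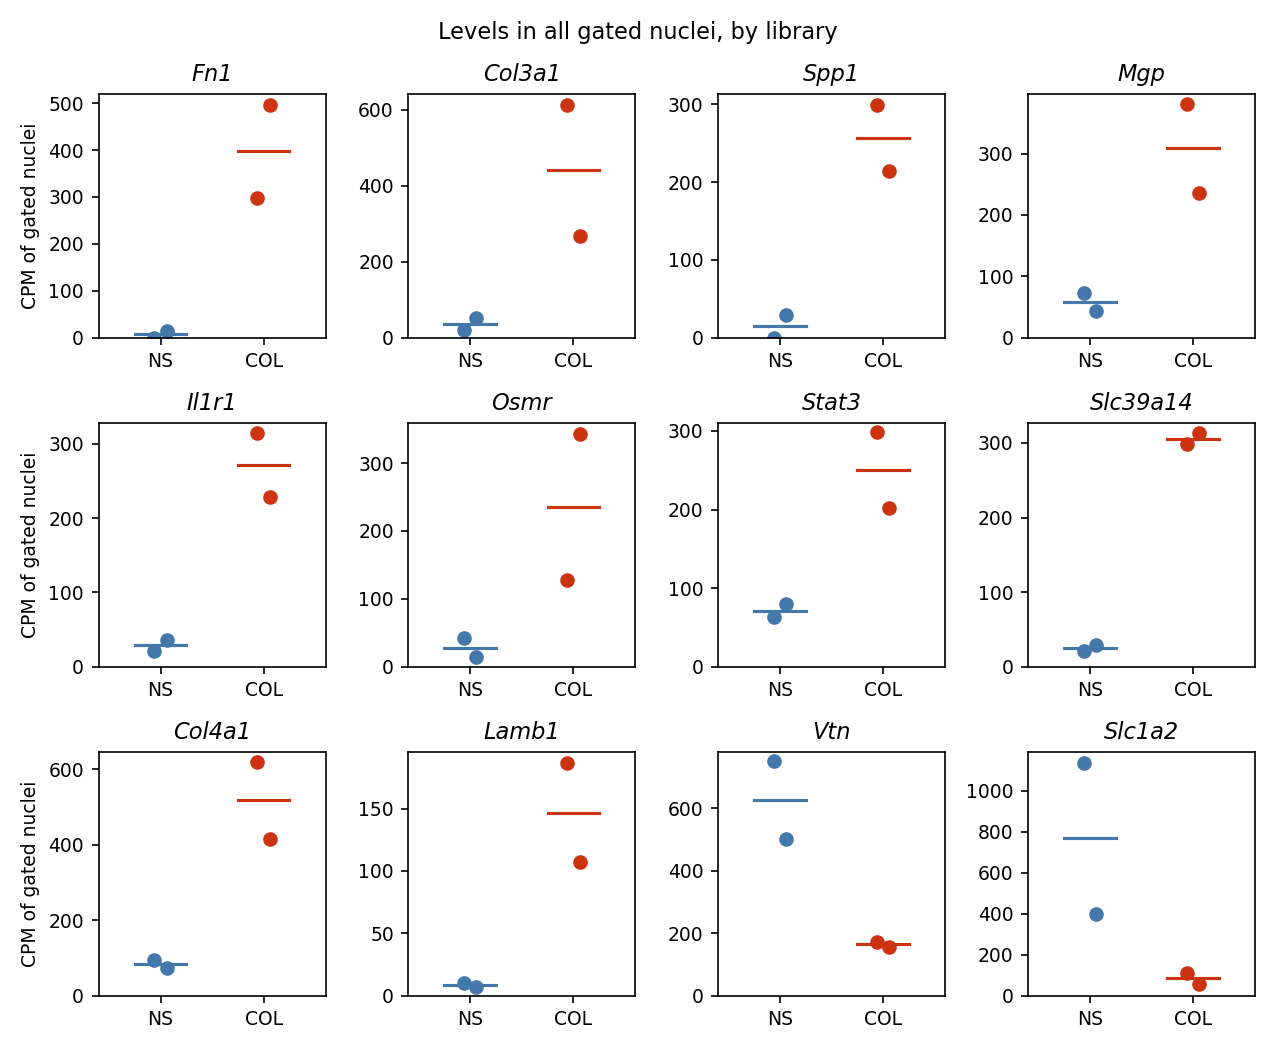
CPM in all gated nuclei of each library for 12 genes, with a point per library and a line at the mean of each group. In Fn1, Col3a1, Spp1, Mgp, Il1r1, Osmr, Stat3, Slc39a14, Col4a1 and Lamb1 both COL points lie above both NS points, and in Vtn and Slc1a2 both lie below.

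Receptors of inflammatory cytokines also had higher levels in the COL libraries without passing the test. Il1r1, the signalling receptor of interleukin-1, had 2, 5, 42 and 60 UMIs (20.9, 36.2, 314 and 229 CPM), with a log2 fold change of 3.01 (SE 0.50, edgeR adjusted p = 0.068). Osmr, the oncostatin M receptor, had 4, 2, 17 and 90 UMIs (41.7, 14.5, 127 and 343 CPM) and a log2 fold change of 3.06 (SE 0.71, edgeR adjusted p = 0.0859), which ran from 2.12 without COL replicate 2 to 3.90 without NS replicate 1. Both had non-overlapping groups, and DESeq2 called both higher on these sums where edgeR did not. With mural-leaning and fibroblast-leaning sums kept apart in the fit and the library as a term, the log2 fold changes were 2.73 for Il1r1 and 2.87 for Osmr. edgeR called both there, but that fit takes its error from the spread between kinds of nucleus within a library, not between libraries, and it uses fibroblast-leaning sums of 2 and 7 nuclei.

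Il6st, the signal-transducing partner of Osmr, stood at 41.7, 79.7, 149 and 183 CPM, and the transcription factor gene Stat3, which acts below that receptor, at 62.6, 79.7, 299 and 202. Nfkb1, an NF-kappaB subunit, stood at 125, 159, 209 and 301 CPM and Il33, an alarmin, at 104, 50.7, 135 and 129.7. Of the 23 inflammatory signalling genes only these 6 were tested, none of which passed the adjusted threshold. Members such as Il1r1 and Osmr passed the filter on low counts through the COL libraries, so the order of the 6 is no measure of the list. Chemokine and adhesion genes were near 0, with Ccl2 at 0, 0, 2 and 7 UMIs, Cxcl1 at 0, 0, 2 and 8 and Icam1 at 0, 0, 4 and 10, and complement C3 had no UMI in any library.

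Slc39a14, a zinc and iron importer gene that lay in no list, had 2, 4, 40 and 82 UMIs (20.9, 29.0, 299 and 313 CPM) and a log2 fold change of 3.41 (SE 0.48, edgeR adjusted p = 0.068). Its level in all other nuclei was 31.1, 31.6, 56.1 and 57.5 CPM. The COL libraries were above the NS libraries in both sets of nuclei, and the difference between the changes did not pass the test (log2 2.67, edgeR adjusted p = 0.296).

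No basement membrane gene passed the test in all gated nuclei. Col4a1, the alpha 1 chain of type IV collagen (GRCm38 chromosome 8, 11198423 to 11312826, minus strand), had 9, 10, 83 and 109 UMIs (93.9, 72.4, 620.2 and 416 CPM), with a log2 fold change of 2.50 (SE 0.43, edgeR adjusted p = 0.068). The laminin chain gene Lamb1 had 1, 1, 25 and 28 UMIs, with a log2 fold change of 3.79 (SE 0.73, edgeR adjusted p = 0.0707). Both lay higher in the COL libraries.

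Col4a2, the neighbour and partner of Col4a1, stood at 198, 86.9, 276 and 282 CPM, and the laminin chains Lama2, Lamc1 and Lama4 stood at 793, 703, 1248 and 690.5, at 365, 210.1, 560.4 and 301 and at 146, 225, 389 and 256 CPM. The groups overlapped for Lama2 and Lamc1 but not for Col4a2 and Lama4. Of the 12 basement membrane genes, 9 were tested, 5 had both COL libraries above both NS libraries (30.0% of all genes tested did) and the median log2 fold change was 0.61, with Lamb1 passing the filter on low counts through the COL libraries. The means of Col4a1 in gated nuclei were 83.2 ± 15.2 CPM (SD, n = 2) for NS and 518 ± 145 CPM for COL. It stood at 22.4, 17.9, 36.1 and 26.5 CPM in all other nuclei. After thinning to 1000 UMIs, Col4a1 was found in 13.2, 6.38, 35.0 and 25.8% of gated nuclei (5, 3, 7 and 8 nuclei, in a single random draw). Without thinning the shares were 21.1, 16.7, 80.0 and 41.9%. Of the mural-leaning nuclei, thinned in a separate draw, 5, 0, 2 and 2 had the gene, too few to compare the groups.

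Pericyte genes outside the rule were lower in the COL libraries or overlapped, and none passed the test in the summed gate. Vtn had 72, 69, 23 and 41 UMIs (751, 499.8, 172 and 156 CPM), with a log2 fold change of -2.06 (SE 0.40, edgeR adjusted p = 0.0709). P2ry14, a receptor of UDP-sugars, stood at 209, 188, 97.1 and 53.4 CPM, and the ADP-ribosyltransferase gene Art3 at 156, 109, 59.8 and 53.4. Of the 12 other pericyte genes, 8 were tested, 4 had both COL libraries below both NS libraries (17.8% of all genes tested did) and the median log2 fold change was -0.89. DESeq2 called Vtn lower, and edgeR called no gene of the list.

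Ebf1, a transcription factor gene of mural cells, stood at 2201, 1268, 1024 and 1564 CPM and Slc6a20a at 553, 572, 740 and 435, with overlapping groups. As the mix of mural-leaning and fibroblast-leaning nuclei differed between libraries, the same genes were also taken within mural-leaning nuclei. There Vtn stood at 804, 723, 271 and 418 CPM, lower in both COL libraries, with a log2 fold change of -1.35 (SE 0.43, edgeR adjusted p = 0.0717). P2ry14 stood at 223, 312, 171 and 117 CPM, also without overlap, and Art3 at 167, 213, 114 and 183, with overlap. Ebf1 had 204, 146, 115 and 366 UMIs, and the log2 fold change was 0.01 for Slc38a11 and 0.17 for Notch3. Of the 8 pericyte genes tested in mural-leaning nuclei, 2 lay below in both COL libraries (16.5% of all genes tested there did) and 1 above (32.5%). Vtn and P2ry14 thus kept their order within the mural-leaning nuclei, and neither passed the test.

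**Figure D4:**
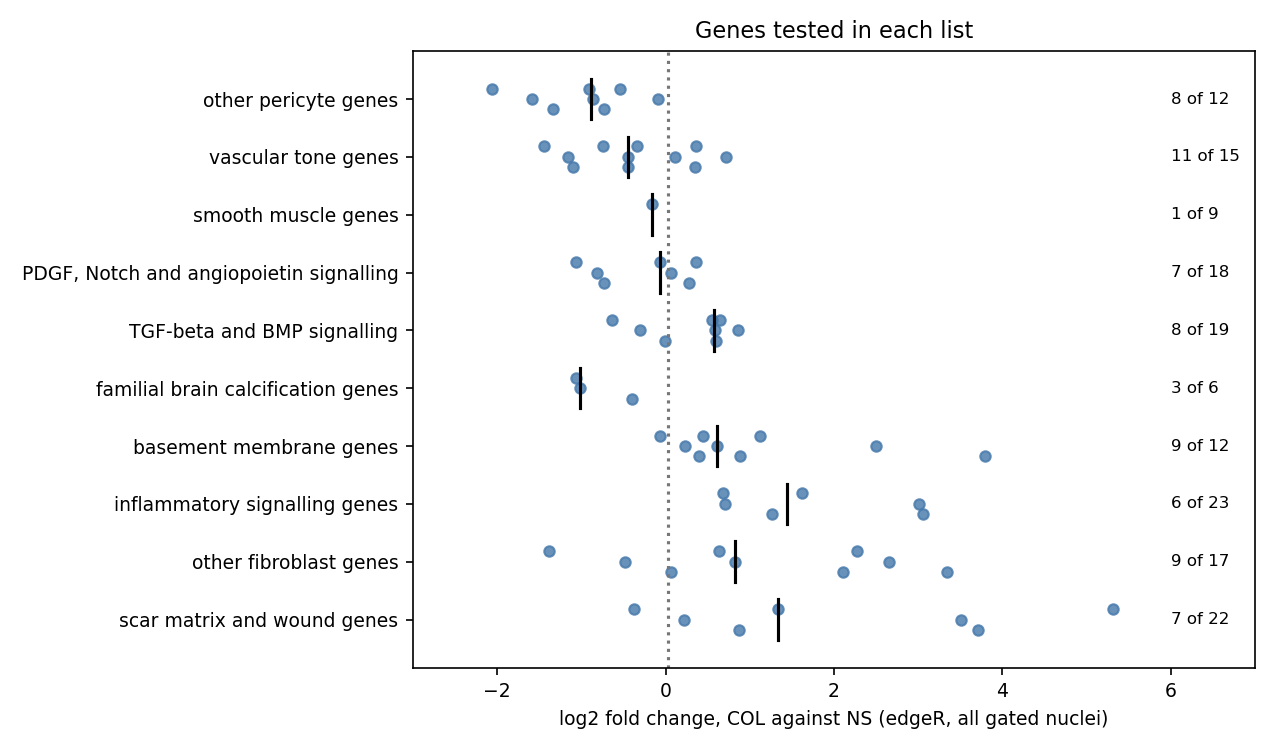
The log2 fold change of each tested gene of 10 lists in all gated nuclei, COL against NS, with the list's median as a black line and the median of all 3241 genes as a dotted line. Vertical offsets within a list have no meaning. Genes high in the COL libraries alone can pass the filter on low counts and shift a median, so medians describe the tested members only, and none of the genes plotted passed the adjusted threshold.

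Within mural-leaning nuclei (36, 27, 12 and 13, with 89607, 70553, 70036 and 76645 UMIs), 1556 genes were tested, 6 of them genes of the rule. edgeR called 80 of them (5.14%), 20 higher in the COL group (1.29%) and 60 lower (3.86%). At an unadjusted p under 0.05, 105 were higher (6.75%) and 166 lower (10.7%), and both COL libraries lay above both NS libraries for 505 (32.5%) and below for 256 (16.5%). Col4a1 rose, from 8 and 3 UMIs to 34 and 41 (89.3, 42.5, 485 and 535 CPM), with a log2 fold change of 2.67 (SE 0.52, edgeR adjusted p = 0.00793). Osmr rose from 3 and 2 UMIs to 10 and 29 (log2 fold change 2.82, SE 0.70, edgeR adjusted p = 0.0254). Both genes passed the filter on low counts through the COL libraries, so their entry to the test depended on the level there. The mural-leaning nuclei were deeper in the COL libraries, with medians of 2076, 2075, 4641.5 and 5333 UMIs. With these nuclei thinned as for Col4a1 above, Osmr was found in 8.33, 7.69, 8.33 and 7.69% of them. These were 3, 2, 1 and 1 nuclei, too few to compare the groups. The call of Col4a1 was lost without NS replicate 1 (3.28, edgeR adjusted p = 0.747) or NS replicate 2 (2.37, 0.077). That of Osmr was lost without COL replicate 2 (1.92, edgeR adjusted p = 0.687), NS replicate 1 (2.9, 0.747) or NS replicate 2 (2.80, 0.0539). Col4a1 and Osmr were the only genes called in the basement membrane and inflammatory lists, of which 6 and 3 members were tested. No member of the pericyte, vascular tone or scar lists was called.

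The other genes with the largest rises were Ninj2, a cell adhesion gene (2, 1, 10 and 21 UMIs), Tmeff2, a transmembrane protein gene of the nervous system (9, 24, 151 and 71 UMIs), and Gas7 (4, 2, 21 and 14 UMIs), with edgeR adjusted p of 0.0279, 0.0121 and 0.0313. The call of Tmeff2 was lost with DESeq2 (adjusted p = 0.148) and in the strict gate (edgeR adjusted p = 0.192). Its log2 fold change of 2.58 ran from 1.89 without NS replicate 1 to 3.79 without NS replicate 2. Genes of myelin were called as well, Mbp with 11, 17, 68 and 51 UMIs and Mobp with 6, 6, 40 and 15. In the stricter gate described above the groups overlapped for Mbp (145, 343, 808 and 308 CPM) and Mobp (104, 132, 231 and 88.0 CPM), and the log2 fold change of Mbp went from 1.95 to 0.95 (edgeR adjusted p = 0.506). Mobp had a log2 fold change of 2.08, and of 1.25 without COL replicate 1 (edgeR adjusted p = 0.394). The largest falls were in the long noncoding RNA Gm3764 (66, 24, 4 and 0 UMIs), B230323A14Rik (21, 10, 2 and 0), Gm20713 (19, 11, 2 and 0), Saraf, a regulator of calcium entry (15, 11, 0 and 2), and the astrocytic glutamate transporter gene Slc1a2 (109, 44, 9 and 4). For all of these but Saraf, most NS counts lay in nuclei in which another cell type's markers outweighed the gate genes. Without those nuclei Gm3764 had 7, 0, 0 and 0 UMIs, B230323A14Rik had 2, 2, 0 and 0, Gm20713 had 1, 0, 0 and 0, Saraf had 10, 6, 0 and 2 and Slc1a2 had 14, 4, 3 and 4. Slc1a2 is itself one of the markers by which those nuclei were left out, so its own loss there follows from the rule. Ninj2 and Gas7 passed the filter on low counts through the COL libraries, and B230323A14Rik, Gm20713 and Saraf through the NS libraries.

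Markers of other cell types differed between the libraries beside these calls. The 6 oligodendrocyte markers summed to 368, 695, 1685 and 939 CPM in mural-leaning nuclei and the 6 astrocyte markers to 1808, 1191, 1514 and 91.3 CPM. Slc1a2 and Mobp are members of these lists. The stricter gate leaves nuclei out by the same lists, so lower counts of both genes there follow partly from its rule. The oligodendrocyte sum was higher in both COL libraries, while the astrocyte sum overlapped and was low in COL replicate 2 alone. The part of such RNA in the calls was not tested. In the stricter gate (25, 19, 9 and 12 mural-leaning nuclei), edgeR called 0 of 791 genes, 123 of which had an unadjusted p under 0.05. Col4a1 had 7, 3, 15 and 40 UMIs there, with a log2 fold change of 1.83 (edgeR adjusted p = 0.153). The calls also fell to 0 without NS replicate 1 (100 genes at an unadjusted p under 0.05) and without TMM scaling (243 genes), and to 6 higher and 5 lower with DESeq2.

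Vascular tone genes set the contraction of mural cells, and none was called. Ednra, the endothelin A receptor that constricts pericytes, had 21, 7, 31 and 48 UMIs (234, 99.2, 443 and 626 CPM) and a log2 fold change of 1.44 (SE 0.48, edgeR adjusted p = 0.0813). It was 2.16 without NS replicate 1, 1.07 without NS replicate 2 and 0.89 in the strict gate (edgeR adjusted p = 0.388). In all gated nuclei, the kinase gene Prkg1 stood at 2587, 1652, 1853 and 1831 CPM, the calcium channel gene Cacna1c at 1106, 847, 1293 and 1450, and the calcium release channel gene Itpr1 at 449, 442, 755 and 324. The nitric oxide receptor subunits Gucy1a1 and Gucy1b1 stood at 156, 86.9, 52.3 and 64.9 and at 355, 196, 157 and 114 CPM, both lower in both COL libraries. Of 15 vascular tone genes 11 were tested, with a median log2 fold change of -0.44 in all gated nuclei and 0.12 in mural-leaning nuclei. In mural-leaning nuclei 7 of the 11 lay higher in both COL libraries (32.5% of all genes tested there did) and 2 lower (16.5%). Abcc9, counted in this list, belongs to the gate.

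Genes of signalling between endothelium and pericytes lay on either side. Among 18 genes of PDGF, Notch and angiopoietin signalling 7 were tested, 1 lay higher in both COL libraries (30.0% of all genes tested did) and 2 lower (17.8%), and the median log2 fold change was -0.06. The ligand gene Pdgfb had a single UMI (NS replicate 2), while its receptor Pdgfrb, a gate gene counted in the list, stood at 970.2, 362, 276 and 408 CPM. The cadherin gene Cdh2 stood at 479.9, 282, 232 and 237 CPM and Notch3 at 469, 268, 224 and 256. Of 19 genes of TGF-beta and BMP signalling 8 were tested, 2 lay above, a share near the 30.0% of all genes tested, and none below. Its members of highest CPM, the receptor genes Tgfbr3, Bmpr1a, Bmpr2 and Tgfbr1, had levels of 177, 362, 568 and 332, of 303, 174, 179 and 153, of 177, 130.4, 194 and 301 and of 62.6, 203, 157 and 309 CPM, and the groups overlapped except for Bmpr2.

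**Figure D5:**
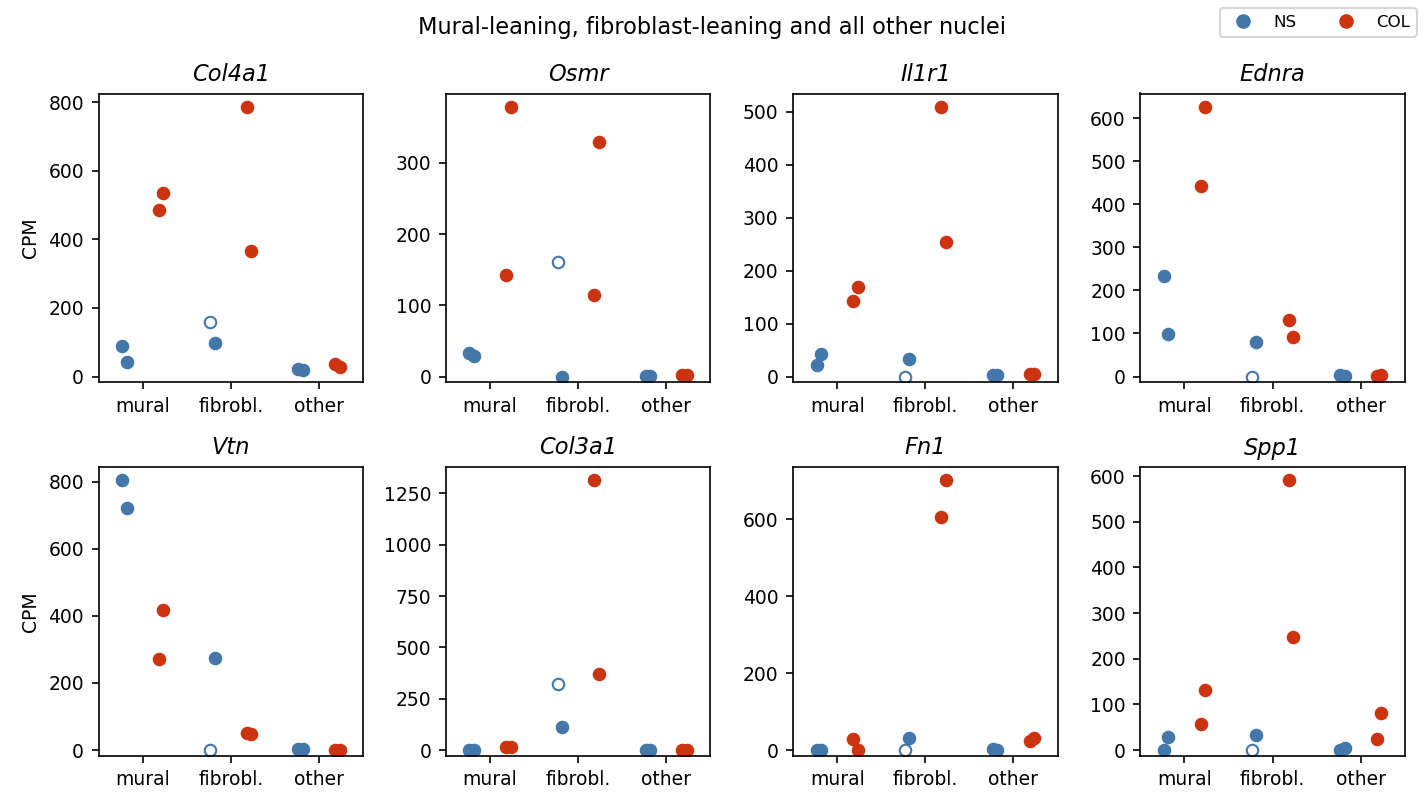
CPM of 8 genes in mural-leaning, fibroblast-leaning and all other nuclei of each library. Col3a1, Fn1 and Spp1 are high in fibroblast-leaning nuclei of the COL libraries, and Col4a1 in both kinds. Osmr is high in mural-leaning nuclei of the COL libraries, while its groups overlap in fibroblast-leaning nuclei. The open circle marks the 2 fibroblast-leaning nuclei of NS replicate 1.

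Apoe and Abca1, key genes of the study, had lower levels in the gated nuclei of both COL libraries, and neither passed the test. Apoe, which carries lipids, had 74, 89, 28 and 98 UMIs (772, 645, 209 and 374 CPM), with a log2 fold change of -1.38 (SE 0.43, edgeR adjusted p = 0.173). In mural-leaning nuclei it stood at 792, 765, 114 and 444 CPM (log2 fold change -1.66, edgeR adjusted p = 0.0565, and -2.98 without COL replicate 2 or -0.92 without COL replicate 1), lower in both COL libraries without passing the test. In all other nuclei Apoe stood at 266, 272, 94.0 and 336 CPM, with overlapping groups. Its level was lowest in COL replicate 1 there, as in the gate. The difference between the changes of Apoe did not pass the test (log2 -0.86, edgeR adjusted p = 0.715). The cholesterol exporter gene Abca1 stood at 115, 130.4, 82.2 and 103 CPM in gated nuclei and at 32.9, 29.8, 55.4 and 90.1 in the others.

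The change in gated nuclei was also compared with that in all other nuclei of the same libraries, with the library as a block. Of 3241 genes, 1 differed (0.0309%). It was Gm14005, a long noncoding RNA gene (GRCm38 chromosome 2, 128178319 to 128502765, minus strand, lincRNA). It stood at 532, 319, 471 and 1041 CPM in gated nuclei and at 1.6, 1.84, 34.0 and 47.7 CPM in the others, so that its rise outside the gate exceeded that inside by 3.83 on the log2 scale (edgeR adjusted p = 0.0316). In Fn1 the difference of the changes was 1.09 on the log2 scale (edgeR adjusted p = 0.866), and in Spp1 -0.24 (0.983). Fn1 stood at 1.45, 1.14, 22.2 and 30.6 CPM and Spp1 at 0.633, 4.16, 24.9 and 80.9 CPM in the other nuclei, higher in both COL libraries there too. The other nuclei mix all remaining cell types, and their microglia and macrophage markers stood at 99.6, 117, 290 and 480 CPM. A change within those cells and a change of their mix cannot be told apart in these sums.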

How the data were processed

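Nuclei of thalamic tissue from 4 libraries (10x Genomics, 3′ chemistry) were analysed. Per the methods, the authors processed the reads with Cell Ranger 1.2.0 against mm10 and deposited raw counts of UMIs for each gene and barcode. No removal of doublets or of free RNA is named by the study, and neither was done in the main setting. Members and gene lists were chosen with earlier results of these data known. UMIs were summed per library over gated nuclei and tested with edgeR 4.0.16 (TMM, filterByExpr, quasi-likelihood F test, Benjamini-Hochberg over all genes tested, threshold 0.05) in R 4.3.3 with limma 3.58.1. A test needed at least 10 nuclei per library, which excluded fibroblast-leaning nuclei and the comparison with endothelial nuclei. The fit of mural-leaning nuclei in the strict gate fell short of this, with 9 nuclei in COL replicate 1, and was run as an alternative only. Alternatives were DESeq2 1.42.0, no TMM scaling, all genes with a UMI, a replicate block, other gates (a sum of 20, 3 gate genes, no mitochondrial limit, over 50 genes, nuclei thinned to 2000 UMIs, doublet scores by Scrublet in scanpy 1.11.5, and a strict gate without nuclei in which another cell type's markers outweigh the gate genes), both kinds of nucleus kept apart in the fit, and each library left out. The fit with the group as a term for kinds kept apart, the fit without the deepest nucleus and the strict gate of mural-leaning nuclei were added after the data had been seen. Genes named were the gate genes, called members and the 4 members of highest CPM of each list, the 5 largest rises and falls in mural-leaning nuclei, the 15 leading genes, Apoe and Abca1, and others stated as chosen after their values were seen. Nothing says that libraries of a group were prepared apart beyond their mice, so p-values measure the spread between libraries. Some items under the naming rule are not reported here. Coordinates are from GENCODE on GRCm38. Shares carry exact Clopper-Pearson intervals (95%). Python 3.11.15, numpy 2.4.6, scipy 1.17.1, pandas 2.3.3 and matplotlib 3.10.9 were used. The edgeR step was tested on simulated counts with 200 changed genes. For all gated nuclei (3341 genes) it found 46.3% of log2 changes of 2 and 1.9% of changes of 1, and for mural-leaning nuclei (1702 genes) 56.6 and 5%. False calls numbered 0 and 2. Each simulation was a single draw with the same dispersion for all genes (0.077 and 0.075). It did not model UMIs held by single nuclei, so these rates hold for the simulation only.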

Additional observations from a re-analysis of the deposited data

Results flagged for a closer look

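The change of Gm14005 between the groups differed between gated nuclei and all other nuclei of the same libraries, by a test of the difference itself (log2 difference -3.83, gated minus others, edgeR adjusted p = 0.0316). Its level in the other nuclei was 1.6 and 1.84 CPM in the NS libraries and 34.0 and 47.7 CPM in the COL libraries, while gated nuclei had 532 and 319 against 471 and 1041 CPM. In mural-leaning nuclei it stood at 569, 609, 857 and 2453 CPM. A single nucleus of COL replicate 2 held 98 of its UMIs. The part of a changed mix of cell types among the other nuclei was not tested. Groups of 2 libraries are too small for a search for single libraries that stand apart.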

How the results depend on the processing

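With DESeq2, 30 genes were higher and 24 lower in all gated nuclei, against 0 and 0 with edgeR. Over leave-one-out fits these counts ran from 36 to 108 and from 34 to 100, in which a lone library is assumed to vary like the other group. Without TMM scaling 2 were higher, with all genes that had a UMI 103 and 100, with kinds of nucleus kept apart 5 and 11 (library as a term) or 3 and 13 (group as a term), fits that count both sums of a library, and without the deepest nucleus 3 and 4. In mural-leaning nuclei the counts of 20 and 60 became 6 and 5 with DESeq2, 0 and 0 without TMM scaling, 42 and 36 with all genes, 0 and 0 in the strict gate, and 0 to 57 and 0 to 84 over leave-one-out fits. Of the 80 mural calls, 58 were shared without COL replicate 2, 50 without COL replicate 1, 23 without NS replicate 2 and 0 without NS replicate 1. Genes whose change differed from that of other nuclei numbered 17 with all genes and 1 to 16 over leave-one-out fits. The difference of the gated share, -0.0117 percentage points, reversed at a sum of 20 (0.0322) and with 3 gate genes (0.0698), grew to -0.128 with nuclei thinned to 2000 UMIs, and reversed in 2 leave-one-out values (range -0.0904 to 0.0671). The cause of these differences was not tested. Replicate numbers do not pair the libraries (correlation of deviations -0.09 in all gated and 0.01 in mural-leaning nuclei). With the replicate number as a block, 0 genes were called in all gated nuclei (374 at an unadjusted p under 0.05), and 32 higher and 68 lower in mural-leaning nuclei, 77 of them among the 80. Over 345 alternative values of 35 fold changes named, 0 turned direction. Most of these genes were named with groups that did not overlap. Leaving out a library could hardly turn their direction, so the 0 is no support for them. With 20 to 48 gated nuclei per library, most changes of 1 on the log2 scale were not detectable at this depth in the simulation.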

Other observations

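Cell division genes in the gate came almost only from COL replicate 2. Of the 12 genes listed, none had enough UMIs for the test. The proliferation marker Mki67 had 0, 0, 0 and 13 UMIs (order of libraries as above), the topoisomerase gene Top2a had 1, 0, 1 and 18, the kinetochore gene Cenpe had 0, 0, 0 and 20, the formin gene Diaph3 had 3, 0, 1 and 30, and the ring protein gene Anln had 1, 2, 2 and 19. COL replicate 1 therefore did not share the level of COL replicate 2, and a count of 0 there allows up to 22.4 CPM, beside 49.6 CPM of Mki67 in COL replicate 2.

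Genes of familial brain calcification had low counts. The phosphate exporter gene Xpr1 stood at 188, 130.4, 74.7 and 91.6 CPM, lower in both COL libraries (edgeR unadjusted p = 0.0365, adjusted p = 0.302), and the phosphate importer gene Slc20a2 at 73.0, 145, 74.7 and 107. Jam2 had 2, 9, 1 and 2 UMIs. Of the 6 genes of this list, which also holds the gate gene Pdgfrb, 3 were tested.

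The 30 nuclei (5, 9, 7 and 9) that passed the same kind of gate built on the endothelial genes Flt1, Cldn5, Pecam1 and Adgrl4 had 4, 1, 44 and 21 UMIs of Fn1 (239, 48.1, 689 and 499.6 CPM), 2, 3, 92 and 6 of Col4a1 and 1, 1, 20 and 8 of Osmr. Col4a1 UMIs were high in COL replicate 1 only, and no test was run at these numbers of nuclei.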
